A study of Mus musculus with 46 samples.

Results

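RNA levels were compared between mouse cells labelled siIgf2bp3 and cells labelled siNC, both grown from EPSCs (extended or expanded potential stem cells) in a medium that induces primitive endoderm. Of the 46 libraries of the series, 4 belonged to this comparison, with 2 libraries per label. All 4 had the same source cells and medium in the labels, and the only labelled difference was the treatment, siNC or siIgf2bp3. The siRNA sequences, the dose, the time after transfection, the mouse strain and the number of cultures are not known from the labels, so p-values measure the spread between these libraries, which may be technical. The table held 21812 genes, and every gene with enough reads entered the test, which left 12918. The series as a whole asked how N6-methyladenosine acts on transcripts during primitive endoderm development, and this comparison addressed a protein that reads that mark.

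N6-methyladenosine (m6A) is a methyl mark placed on messenger RNA by a complex built around METTL3, with WTAP and VIRMA among its partners. IGF2BP1, IGF2BP2 and IGF2BP3 are RNA-binding proteins that bind many marked transcripts and are known for slowing their decay. Primitive endoderm is the extraembryonic layer that forms beside the pluripotent epiblast of the blastocyst. It is specified by GATA6, GATA4, SOX17 and SOX7, is promoted by FGF signalling, and goes on to make the visceral and parietal endoderm of the yolk sac, which take up nutrients and lay down a thick basement membrane.

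The level of the targeted gene did not follow the label. Igf2bp3 stood at 98.4 and 113 CPM (counts scaled to library size) in the siNC libraries and at 117 and 111 CPM in the siIgf2bp3 libraries. The groups overlapped, and the log2 fold change, always siIgf2bp3 over siNC, was 0.11 ± 0.11 (SE, adjusted p = 0.577 in edgeR's quasi-likelihood test). With a GC offset, described below, the log2 fold change was -0.012 (adjusted p = 0.94 in the same test). Without siNC 1 and without the offset it was -0.01, and without siNC 2 it was 0.21. The RNA of the targeted gene was therefore not lower in the libraries labelled siIgf2bp3, the protein was not measured, and every direction below is a direction between libraries with these labels. Igf2bp1 had 1210 and 1154 CPM in siNC and 1357 and 1363 CPM in siIgf2bp3, a log2 fold change of 0.20 ± 0.09 that did not pass the threshold (adjusted p = 0.178). Igf2bp2 had 193 and 175 CPM in siNC and 143 and 148 CPM in siIgf2bp3, a log2 fold change of -0.34 ± 0.10 (adjusted p = 0.0679). Neither of these genes overlapped between the groups, which with 2 libraries per label is also common among genes that do not differ. It therefore adds nothing to the test, here or below. Both genes passed once the GC offset was fitted (Igf2bp1 0.18, adjusted p = 0.0484, and Igf2bp2 -0.34, adjusted p = 0.00318). Without either siIgf2bp3 library, neither passed with the offset. With the offset Igf2bp1 also missed the threshold under RLE factors, the size factors of DESeq2 (adjusted p = 0.066), a filter of 1 CPM in 2 libraries (0.0778), a replicate block (0.0686) and DESeq2 (0.157), whereas Igf2bp2 passed under each of these 4. Without siNC 1 and without the offset, both passed (Igf2bp1 0.21, adjusted p = 0.000167, and Igf2bp2 -0.29, adjusted p = 0.000782).

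Depth was even, from 8160276 to 8643434 counts, and 15794 to 15866 genes had a count in each library. The siIgf2bp3 pair lay close together, with a chi-square per degree of freedom of 2.02, where 1 siNC library differed from the other by 9.82. Library pairs across the labels lay at 13.2 to 26.2, and both of the highest values involved siNC 1. The library siNC 1 therefore stood apart, and results without it are given below beside those of each list described. Mitochondrially encoded genes took 0.389% and 0.538% of the counts in siNC and 0.793% and 0.696% in siIgf2bp3.

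At an adjusted p below 0.05 (Benjamini-Hochberg over all genes tested), 945 of 12918 genes, or 7.32%, were called. Of all genes tested, 361 rose (2.79%) and 584 fell (4.52%) in siIgf2bp3. The counts of called genes in each list below are to be set beside these shares. The median log2 fold change over all genes was 0.0051, and the median size without sign was 0.23. With a library left out, the spread came only from the label that kept 2 libraries. That was the siIgf2bp3 pair (chi-square per degree of freedom 2.02) when a siNC library was left out, and the siNC pair (9.82) otherwise. A call gained or lost then can follow this spread with little change in size. List counts from such fits follow the totals given next and are no result about a list. Without siNC 1, 2455 genes were called, and these held 933 of the 945. Without siNC 2, 4948 were called, whereas only 236 were called without siIgf2bp3 1 and 305 without siIgf2bp3 2. A set of 178 of the 945 genes was called in the same direction whichever library was left out, 26 of them higher and 152 lower.

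The largest falls were deeper than the largest rises. Egr2, an immediate early transcription factor, had 31.7 and 27.4 CPM in siNC and 6.61 and 5.65 CPM in siIgf2bp3, a log2 fold change of -2.27 ± 0.19 (adjusted p = 0.000198). Hkdc1, which encodes a hexokinase family member, had 107 and 95.0 CPM in siNC against 28.4 and 25.02 CPM (log2 -1.92 ± 0.13, adjusted p = 9.17e-05). Labels that did not overlap were a condition for naming these genes, so their separation is no further result. The other large falls among genes of at least 10 CPM were Amn, Fam151a, Egflam, Col4a2, Col4a1, Nxf7, Ramp2, Rcn3, Cacna1d and Lrrk1, with log2 fold changes from -1.90 to -1.44. They include 4 genes of basement membrane or endocytosis (Amn, Egflam, Col4a2 and Col4a1), which are taken up with their groups below. Nxf7, an X-linked member of the mRNA export factor family, had 73.8 and 85.7 CPM in siNC and 25.7 and 30.1 CPM in siIgf2bp3 (log2 -1.51 ± 0.14, adjusted p = 0.000299). Rcn3, a calcium-binding protein of the secretory pathway, had 224 and 165 CPM against 67.8 and 74.0 CPM (log2 -1.45 ± 0.14, adjusted p = 0.000417).

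The largest rises among genes of at least 10 CPM, with labels that did not overlap and predicted loci left out, were Enox1, Dpysl3, Vcan, Mest, Ppp2r3a, mt-Nd1, mt-Cytb, Zfp459, Zfp936, Etv1, Pla2g7 and Zfp945, with log2 fold changes from 0.97 to 1.31. Mest, an imprinted gene expressed from the paternal copy, had 32.8 and 33.5 CPM in siNC and 72.4 and 71.2 CPM in siIgf2bp3 (log2 1.12 ± 0.12, adjusted p = 0.000714). Vcan, a large proteoglycan of the extracellular matrix, had 21.9 and 27.9 CPM against 54.1 and 54.7 CPM (log2 1.13 ± 0.15, adjusted p = 0.00188). Enox1 had 10.5 and 11.3 CPM in siNC and 28.4 and 25.6 CPM in siIgf2bp3 (log2 1.31 ± 0.17, adjusted p = 0.00172). That the labels did not overlap was a condition for naming these 3 genes and is no further result. Etv1, an ETS family transcription factor, had 10.6 and 11.2 CPM against 22.3 and 21.1 CPM (log2 1.00 ± 0.17, adjusted p = 0.00895). Of the 12 genes, Ppp2r3a, Zfp936 and Zfp945 lost the call without siIgf2bp3 1 (adjusted p = 0.236, 0.172 and 0.069), and Pla2g7 lost it without siIgf2bp3 2 (adjusted p = 0.188).

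**Figure D1:**
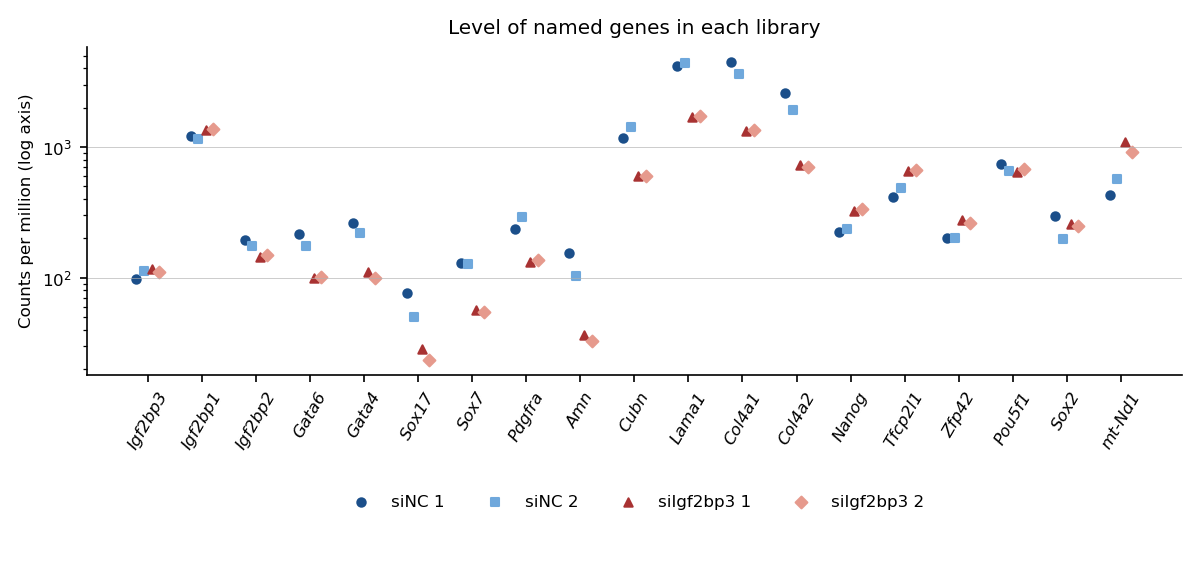
Level of 19 named genes in each of the 4 libraries, in CPM on a log axis, with circles and squares for siNC and triangles and diamonds for siIgf2bp3. Igf2bp3 overlaps between the labels, the primitive endoderm, endocytic and matrix genes from Gata6 to Col4a2 are lower in both siIgf2bp3 libraries, and Nanog, Tfcp2l1 and Zfp42 are higher.

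The changes were not independent of base composition. The median share of G and C letters in exons was lower in genes that rose than in genes that fell. The sequences shown first were picked for their extreme exon GC content. Their contrast therefore follows from the choice and adds nothing to the trend. The first 90 coding bases are shown for the 3 genes of highest exon GC content among the 12 largest falls (Amn, Col4a2 and Rcn3, on chromosomes 12, 8 and 7), followed by the 3 of lowest GC content among the 12 largest rises (Zfp945, mt-Nd1 and Zfp936, on chromosome 17, the mitochondrial genome and chromosome 7). They are from GENCODE M21 transcripts on GRCm38, 5′ to 3′ from the start codon, and capitals mark every G and C.
Amn: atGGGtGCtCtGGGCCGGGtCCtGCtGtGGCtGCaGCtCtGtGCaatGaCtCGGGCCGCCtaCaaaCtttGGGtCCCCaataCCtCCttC
Col4a2: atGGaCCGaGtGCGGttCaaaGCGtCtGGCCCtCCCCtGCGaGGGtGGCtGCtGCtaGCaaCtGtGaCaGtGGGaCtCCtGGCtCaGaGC
Rcn3: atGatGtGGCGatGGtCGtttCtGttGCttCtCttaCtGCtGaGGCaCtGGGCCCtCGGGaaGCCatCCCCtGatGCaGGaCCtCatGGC
Zfp945: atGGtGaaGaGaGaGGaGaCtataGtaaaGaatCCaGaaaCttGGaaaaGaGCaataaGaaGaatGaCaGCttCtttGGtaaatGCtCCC
mt-Nd1: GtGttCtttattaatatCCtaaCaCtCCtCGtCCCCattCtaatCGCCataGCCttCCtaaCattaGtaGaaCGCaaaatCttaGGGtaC
Zfp936: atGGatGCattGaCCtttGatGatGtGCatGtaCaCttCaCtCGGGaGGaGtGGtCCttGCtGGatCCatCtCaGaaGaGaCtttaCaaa
In these windows G and C made up 61.1%, 63.3% and 57.8% for the 3 falls and 38.9%, 40% and 45.6% for the 3 rises. Over the whole exons the values were 62.9%, 60.6% and 59.9% against 36.0%, 37.6% and 38.8%.

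Not every large change lay at the GC extreme of its direction. Nxf7 on chromosome X had the lowest GC content of the 12 falls, and Enox1 on chromosome 14 was exceeded among the 12 rises by Dpysl3 (50.8%), which is not shown. Nxf7 and Enox1 are shown in the same way.
Nxf7: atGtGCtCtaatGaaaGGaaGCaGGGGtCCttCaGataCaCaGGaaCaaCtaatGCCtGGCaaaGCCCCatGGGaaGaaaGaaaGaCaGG
Enox1: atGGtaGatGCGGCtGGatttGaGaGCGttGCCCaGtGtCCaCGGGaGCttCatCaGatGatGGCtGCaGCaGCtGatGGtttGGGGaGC
Their exons held 45.6% and 50.7% G and C, so Nxf7 fell at a lower GC content than that at which Enox1 rose.

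GC content could be assigned to 12840 of the 12918 genes tested. Across these genes the log2 fold change and GC content had a Spearman correlation of -0.47, a description across genes, which are not independent replicates. The genes that rose had a median exon GC content of 45.0%, the genes that fell 55.3%, and the genes not called 50.7%. The correlation was -0.46 with the GC content of coding bases and -0.38 with that of noncoding exon bases. It was -0.46 in each tertile of exon length, and -0.41, -0.50 and -0.54 from the lowest to the highest tertile of level. Leaving out the called genes, it was -0.44 over 11899 genes, so the trend ran through the whole table. Exon length had a correlation of 0.10 with the log2 fold change, and between -0.04 and 0.01 within tertiles of GC content.

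The median change went down step by step along the GC range. In the decile of genes with the lowest GC content, 33.7% to 42.2%, the median log2 fold change was 0.25, and 109 genes rose and 6 fell. In the decile with the highest, 58.6% to 74.7%, the median was -0.31, and 1 gene rose and 127 fell. The genes in the middle, between 50.7% and 52.6%, had a median of -0.0062, with 28 rises and 59 falls.

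The trend was steepest against siNC 1. Taking siNC 2 minus siNC 1, libraries of the same label, the difference had a correlation of -0.53 with GC content, with a median of 0.22 in the lowest decile and -0.40 in the highest. The 2 siIgf2bp3 libraries differed by a median of -0.10 and 0.03 in those deciles, a correlation of 0.17. Against siNC 1, the libraries siIgf2bp3 1 and 2 had correlations of -0.57 and -0.52. Against siNC 2, they had -0.26 and -0.16. All 4 pairs across the labels thus had the same sign, and the value within siNC lay between those of the 2 siIgf2bp3 libraries against siNC 1. Without siNC 1 the correlation of the fitted changes was -0.22, and without siNC 2 it was -0.56. What made the libraries follow GC content was not tested.

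**Figure D2:**
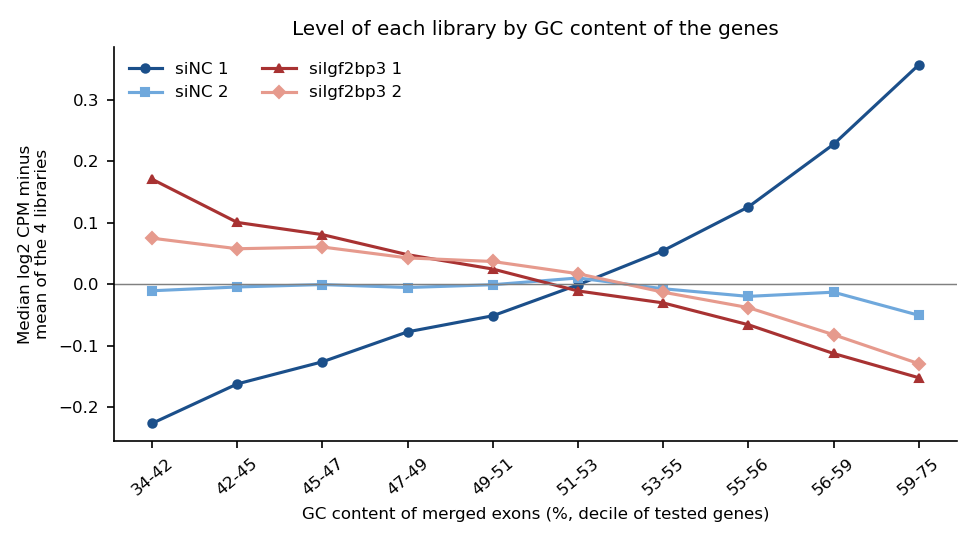
Median log2 CPM of each library, relative to the mean of the 4 libraries, for deciles of the tested genes ordered by GC content of their merged exons. The line of siNC 1 climbs from -0.23 to 0.36, siNC 2 stays between -0.05 and 0.01, and both siIgf2bp3 lines fall, from 0.17 and 0.07 to -0.15 and -0.13.

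The motif GGAC, the common core of m6A sites, was counted on the transcript strand of the longest basic transcript of each gene. It is rich in G and C, and its density had a correlation of 0.63 with GC content. Genes that fell had a median of 5.17 GGAC per kilobase, genes that rose 3.03, and genes not called 4.20. The correlation of GGAC density with the log2 fold change was -0.29 over all genes, and -0.11, -0.01 and -0.07 within tertiles of GC content. With the GC offset it was -0.02, which the offset largely sets, since GGAC density follows GC content. A match of these letters is a description, not a methylated site.

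To set the changes beside genes of like composition, a second fit removed a smooth curve of log2 CPM against GC content from each library before the test. This GC offset takes away any change that follows GC content, whatever its origin, and its p-values do not account for the estimation of the curves. With it, 2044 of 12840 genes were called (15.9%), of which 962 rose (7.49%) and 1082 fell (8.43%). DESeq2 called 900 genes with the same offset, 360 rises and 540 falls, and 820 without it. Of the 945 genes called before, 941 had a GC value, and 862 of these, or 91.6%, were called again, each in the same direction. The remaining 79 lost the call (36 rises and 43 falls), and 1182 genes were called only with the offset (641 rises and 541 falls). Per decile of GC content, 78 to 117 genes rose and 69 to 125 fell, and the median GC content was 50.9% for rises, 51.3% for falls and 50.6% for genes not called. The offset is built to even out changes along GC content, so these values are no further result. With the offset, 638 and 728 genes were called without siIgf2bp3 1 and 2, 2475 without siNC 1, and 3276 without siNC 2. A core of 167 genes was called in the same direction with and without the offset and with any 1 of the 4 libraries left out, and 142 of them were falls.

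**Figure D3:**
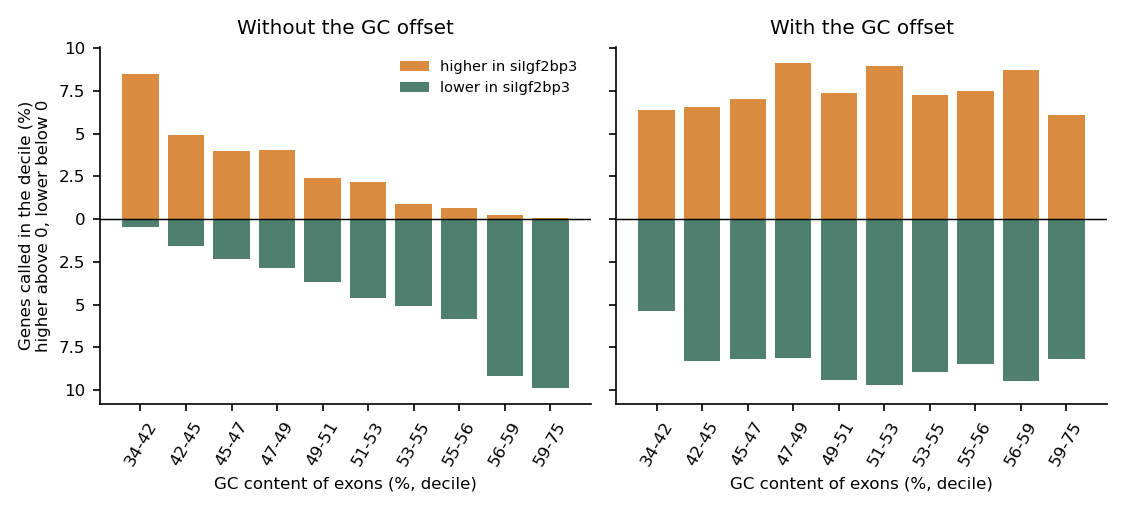
Percentage of genes called higher (above 0) and lower (below 0) in siIgf2bp3 in each decile of GC content, without the GC offset on the left and with it on the right. Without the offset the rises run from 8.49% in the lowest decile to 0.0779% in the highest and the falls from 0.467% to 9.89%, while with the offset rises lie between 6.08% and 9.11% and falls between 5.37% and 9.74%.

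The 6 lost calls named here were chosen for how far the offset moved their values, and they lay at high or low GC content. Ptms, an acidic nuclear protein gene with 65.3% GC, had 267 and 201 CPM in siNC and 164 and 155 CPM in siIgf2bp3, and its log2 fold change went from -0.55 (adjusted p = 0.0336) to -0.14 (adjusted p = 0.212). With a curve on coding GC content in place of exon GC content Ptms was still called (-0.53, adjusted p = 0.0128). Arhgap5, a GTPase-activating protein gene with 34.1% GC, had 75.2 and 89.7 CPM against 121 and 107 CPM, and went from 0.47 (adjusted p = 0.0446) to 0.07 (adjusted p = 0.604). Dact3 and Zfp385a, at 66.4% and 63.7% GC, and Zfp979 and Chordc1, at 34.6% and 35.7%, also lost their calls with the offset. With the curve on coding GC content Dact3 (-0.54, adjusted p = 0.0214) and Zfp385a (-0.37, adjusted p = 0.0263) were called, and Dact3 was also called with GC bins in place of a curve (-0.50, adjusted p = 0.0292) and with the offset but no low-count filter (-0.43, adjusted p = 0.046). The loss of these 3 high-GC calls therefore depended on the GC measure. All 6 had been called with an adjusted p between 0.0267 and 0.0491, and all 6 lost the call without siIgf2bp3 1 as well, with adjusted p from 0.101 (Zfp385a) to 0.524 (Chordc1).

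The 6 gained calls named here were chosen for the smallest adjusted p, under the conditions used for the largest rises and falls. They do not stand for a class of genes. Hsp90b1, the HSP90 of the endoplasmic reticulum with 43.8% GC, had 986 and 1132 CPM in siNC and 892 and 816 CPM in siIgf2bp3, and its log2 fold change went from -0.31 (adjusted p = 0.0881) to -0.46 (adjusted p = 1.6e-05). Hspb1, a small heat shock protein gene with 61.2% GC, had 255 and 200.1 CPM against 256 and 262 CPM, and went from 0.19 (adjusted p = 0.349) to 0.51 (adjusted p = 1.07e-05). The siIgf2bp3 values of Hspb1 lay at or just above siNC 1 and well above siNC 2. Itpk1, Sfn and Rarg, of 57.4% to 59.7% GC, gained as rises (0.49, 0.71 and 0.62 with the offset), and Tgoln1, at 44.7% GC, as a fall (-0.52). Tmem151b, at 60.4% GC, was the 1 gene among the 6 largest rises with the offset that had not passed before, at 0.59 (adjusted p = 0.102) without and 0.89 (adjusted p = 0.00155) with it.

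Among 13 transcription factor genes of primitive endoderm, 9 fell and none rose, with a median log2 fold change of -0.99. Gata6, which starts the primitive endoderm programme, had 217 and 175 CPM in siNC and 99.4 and 102 CPM in siIgf2bp3 (log2 -0.96 ± 0.12, adjusted p = 0.00147). Gata4, its partner, had 263 and 218 CPM against 111 and 99.98 CPM (log2 -1.19 ± 0.12, adjusted p = 0.000417). Both siIgf2bp3 libraries lay well below both siNC libraries for these genes. Sox17 had 76.7 and 50.2 CPM in siNC and 28.5 and 23.4 CPM in siIgf2bp3 (log2 -1.29 ± 0.20, adjusted p = 0.00492). Sox7, an SRY-box factor of the same subfamily as Sox17, had 129 and 128 CPM against 56.1 and 55.0 CPM (log2 -1.21 ± 0.11, adjusted p = 0.000211). The 2 siNC libraries agreed closely for Sox7 and differed more for Gata6, Gata4 and Sox17, with siNC 1 higher. In bulk RNA, fewer cells of a type and less RNA per cell cannot be told apart.

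The fall of these factors was also seen at matched GC content. With the offset 9 of the 13 fell and 1 rose, with a median of -0.80. Gata6 then had a log2 fold change of -0.80, Gata4 of -0.998, Sox17 of -1.30 and Sox7 of -1.22, with adjusted p from 1.13e-09 (Sox7) to 0.0286 (Sox17). The rise was Eomes, a T-box factor gene, named after its values were seen (0.52, adjusted p = 0.00581). Without siNC 1, 10 fell and 1 rose, with medians of -0.82 without and -0.75 with the offset. Gata6, Gata4, Sox17 and Sox7 kept their calls in every fit with a library left out.

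Receptor and signalling genes of this lineage fell in 4 of 11 cases, against 4.52% of all genes tested, and none rose. Pdgfra, the receptor long used to mark primitive endoderm, had 237 and 293 CPM in siNC and 132 and 136 CPM in siIgf2bp3 (log2 -0.99 ± 0.12, adjusted p = 0.00123). Fgfr4 had 38.8 and 35.9 CPM against 20.4 and 19.5 CPM (log2 -0.90 ± 0.14, adjusted p = 0.00507). These 2 receptors kept their calls without any 1 library. Fgfr2 had 39.5 and 40.5 CPM in siNC and 25.8 and 27.9 CPM in siIgf2bp3 (log2 -0.57 ± 0.13, adjusted p = 0.0301), and Dkk1, a secreted Wnt inhibitor, had a log2 fold change of -0.85 ± 0.19 (adjusted p = 0.0266). Fgfr2 and Dkk1 lost the call without siIgf2bp3 1 (adjusted p = 0.325 and 0.0668) and without siIgf2bp3 2 (adjusted p = 0.161 and 0.101). In each of those fits 2 of the 11 fell, and without siNC 1, 4 fell. The median of the 11 was -0.57, and with the offset the same number fell and the median was -0.58.

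Genes of the endocytic apparatus, by which extraembryonic endoderm takes up protein and vitamins, fell in 8 of 13 cases with a median of -0.68, and none rose. Cubn, which encodes the multiligand receptor cubilin, had 1178 and 1409 CPM in siNC and 596 and 596 CPM in siIgf2bp3 (log2 -1.12 ± 0.11, adjusted p = 0.000332). Amn encodes amnionless, the membrane partner of cubilin, and had 153 and 103 CPM against 36.1 and 32.6 CPM (log2 -1.90 ± 0.18, adjusted p = 0.000322). Lrp2, which encodes megalin, had 932 and 1062 CPM against 527 and 536 CPM (log2 -0.91 ± 0.10, adjusted p = 0.00076). All 3 parts of this uptake system thus fell. Lgmn, a lysosomal protease gene, had 239 and 242 CPM against 124 and 124 CPM (log2 -0.95 ± 0.10, adjusted p = 0.000417). With the offset 10 of 13 fell, with a median of -0.74, and Amn, at 62.9% GC, moved from -1.90 to -1.52 while Cubn, at 46.4% GC, moved from -1.12 to -1.23. Without siNC 1, 11 fell, and without siIgf2bp3 1, 5 fell.

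Of 15 basement membrane genes 10 fell and none rose, with a median of -0.75. Summed over the 15 genes, they took 26100 and 23800 CPM in siNC and 12100 and 12300 CPM in siIgf2bp3. The chains of laminin-111 fell together. Lama1 had 4138 and 4357 CPM in siNC and 1699 and 1731 CPM in siIgf2bp3 (log2 -1.31 ± 0.09, adjusted p = 9.17e-05). Lamb1 had 2369 and 2492 CPM against 898 and 893 CPM (log2 -1.44 ± 0.09, adjusted p = 9.17e-05). Lamc1 had 3554 and 3522 CPM against 1641 and 1671 CPM (log2 -1.10 ± 0.09, adjusted p = 0.000159). The labels were separated by far more than the spread within them for each laminin chain, and the GC content of these chains, 52.6% to 53.8%, was near the middle of the table. The collagen IV chains showed a wider spread within siNC. Col4a1 had 4474 and 3596 CPM in siNC and 1332 and 1352 CPM in siIgf2bp3 (log2 -1.59 ± 0.11, adjusted p = 0.000101). Col4a2, its head-to-head neighbour and partner chain, had 2602 and 1908 CPM against 728 and 706 CPM (log2 -1.65 ± 0.13, adjusted p = 0.000172). Against siNC 2 alone, without siNC 1, both were still called lower.

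At matched GC content the laminin values changed little and the collagen values somewhat more. With the offset Lama1 was at -1.25, Lamb1 at -1.41 and Lamc1 at -1.06, while Col4a1 went to -1.38 and Col4a2 to -1.34. For the list, 10 fell and 1 rose with the offset, with a median of -0.49. The rise was Fn1, the fibronectin gene, named after its values were seen (0.27, adjusted p = 0.00365). Without siNC 1 the median was -0.47 without the offset, with 10 falls and 1 rise. Egflam, a secreted matrix protein gene, is outside that list and had 18.3 and 16.6 CPM in siNC and 5.51 and 5.54 CPM in siIgf2bp3 (log2 -1.66 ± 0.21, adjusted p = 0.00147, and -1.64 with the offset).

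Enzymes and chaperones that fold and modify collagen fell with their substrates, 10 of 18 with a median of -0.62, and none rose. Serpinh1, the collagen chaperone HSP47, had 1371 and 1069 CPM in siNC and 441 and 465 CPM in siIgf2bp3 (log2 -1.43 ± 0.12, adjusted p = 0.000203). The prolyl 4-hydroxylase gene P4ha1 had 259 and 292 CPM against 141 and 147 CPM (log2 -0.94 ± 0.10, adjusted p = 0.000799), and its paralog P4ha2 had 268 and 286 CPM against 121 and 128 CPM (log2 -1.15 ± 0.10, adjusted p = 0.000203). Plod3, a lysyl hydroxylase gene, had 190 and 180 CPM against 103 and 108 CPM (log2 -0.81 ± 0.10, adjusted p = 0.00147). No library of siIgf2bp3 reached the siNC range for any of these 4 genes, which with 2 libraries per label adds nothing to the test. With the offset 11 of 18 fell with a median of -0.51. Without siNC 1, 12 fell, and without siIgf2bp3 1 or 2, 6 fell in each case.

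Parietal endoderm genes fell in 6 of 12 cases with a median of -0.53, and none rose. Srgn, the proteoglycan serglycin, had 270.2 and 218 CPM in siNC and 96.7 and 90.3 CPM in siIgf2bp3 (log2 -1.39 ± 0.12, adjusted p = 0.000211). Pth1r, the receptor that mediates parathyroid hormone-related protein signals in parietal endoderm, had 195 and 147 CPM against 67.9 and 61.8 CPM (log2 -1.40 ± 0.14, adjusted p = 0.000417). Snai1, a transcription factor of epithelial to mesenchymal transition, had 90.3 and 56.0 CPM against 26.7 and 29.1 CPM (log2 -1.39 ± 0.20, adjusted p = 0.00362). The spread within siNC was widest for Snai1, whose lower siNC library still lay well above both siIgf2bp3 libraries. With the offset 7 of 12 fell and 1 rose, with a median of -0.57, and Srgn, Pth1r and Snai1 were at -1.57, -1.07 and -1.10. Without siNC 1, 7 fell and 2 rose.

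Visceral endoderm genes were mostly at the limit of detection. Of 16 listed, 7 had enough reads for the test, Afp had no count in any library, and Ttr had 2, 0, 0 and 1 counts. None of the 7 passed edgeR's test under its main settings (median -0.38), 1 had an unadjusted p below 0.05, and DESeq2 called 1 lower. Apoe, which encodes a lipid carrier, had 1003 and 692 CPM in siNC and 588 and 591 CPM in siIgf2bp3 (log2 -0.52 ± 0.15, adjusted p = 0.0552). It passed with the offset (-0.29, adjusted p = 0.0228) and with DESeq2 (-0.53, adjusted p = 0.0119). In edgeR without the offset it also passed under RLE factors (adjusted p = 0.0379), library totals as size factors (0.0425) and the filter of 1 CPM in 2 libraries (0.0374). The same held with no low-count filter (0.00412) and with a replicate block (0.00372). Without siNC 1 its log2 fold change was -0.25, and without siNC 2 it was -0.77.

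Called pluripotency genes rose. Of 17 naive pluripotency genes 7 rose and none fell, with a median of 0.36. Nanog, the homeobox factor that opposes GATA6 in the blastocyst, had 225 and 236 CPM in siNC and 325 and 333 CPM in siIgf2bp3 (log2 0.51 ± 0.09, adjusted p = 0.0115). Tfcp2l1, a transcription factor of the naive network, had 412 and 486 CPM against 649 and 664 CPM (log2 0.55 ± 0.10, adjusted p = 0.0133). Zfp42, also called Rex1, had 200.3 and 200.8 CPM against 277 and 264 CPM (log2 0.43 ± 0.09, adjusted p = 0.0248). Dppa2 had 45.0 and 53.4 CPM against 78.7 and 76.5 CPM (log2 0.66 ± 0.13, adjusted p = 0.0146). The labels did not overlap for any of these 4 genes, which with 2 libraries per label adds nothing to the test. With the offset 9 of 17 rose with a median of 0.30, and Nanog, Tfcp2l1, Zfp42 and Dppa2 were at 0.40, 0.45, 0.32 and 0.50. Without siNC 1, 11 rose and 1 fell, and without siNC 2, 10 rose and 3 fell. None of the 17 was called by edgeR without siIgf2bp3 1 or without siIgf2bp3 2, where Nanog had adjusted p of 0.172 and 0.193 and 6 genes had an unadjusted p below 0.05. With the offset, 4 and 6 were called in those fits.

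The core factors Pou5f1 and Sox2 were not called without the offset or with it. Pou5f1 had 736 and 649 CPM in siNC and 645 and 675 CPM in siIgf2bp3 (log2 -0.07 ± 0.10, adjusted p = 0.685), and its sign turned with the offset (0.13, adjusted p = 0.155). Sox2 had 298 and 197 CPM in siNC and 259 and 248 CPM in siIgf2bp3 (log2 0.03 ± 0.16, adjusted p = 0.92). Both siIgf2bp3 values of Sox2 lay between the siNC values, so the answer turned with the control library, to 0.34 (adjusted p = 2.36e-06) without siNC 1 and to -0.24 (adjusted p = 0.000349) without siNC 2. With a curve on coding GC content Sox2 was called higher on all 4 libraries (0.32, adjusted p = 0.0031). Among the 10 core genes 3 rose, and none fell. They were L1td1, an RNA-binding protein gene (249 and 262 CPM against 394 and 381 CPM, log2 0.60 ± 0.09, adjusted p = 0.00519), Tdgf1, the NODAL co-receptor Cripto (log2 0.57 ± 0.11, adjusted p = 0.0138), and Rif1 (log2 0.55 ± 0.12, adjusted p = 0.022). All 3 lost the call without either siIgf2bp3 library, with adjusted p from 0.0594 to 0.244. With the offset 5 of 10 rose. Without siNC 1, 7 rose and none fell, whereas without siNC 2, 5 rose and 4 fell. Dnmt3l, a cofactor of DNA methylation listed with the formative epiblast, had 162 and 178 CPM in siNC and 91.5 and 89.0 CPM in siIgf2bp3 (log2 -0.91 ± 0.10, adjusted p = 0.000997). It was the 1 called gene of 11 in that list, and with the offset it remained lower (-0.86, adjusted p = 1.12e-07) while 3 others rose. Without siNC 1, 4 of that list rose and 1 fell.

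Targets and feedback genes of FGF and ERK signalling rose in 3 of 12 cases, against 2.79% of all genes tested. None was called lower, and 3 of the 12 had a log2 fold change below 0. Spry4, a feedback inhibitor, had 118 and 115 CPM in siNC and 187 and 207 CPM in siIgf2bp3 (log2 0.76 ± 0.10, adjusted p = 0.00219), and kept its call without any 1 library. Etv5, an ETS factor, had 242 and 248 CPM against 348 and 363 CPM (log2 0.54 ± 0.09, adjusted p = 0.00916). Spred1, also a feedback inhibitor, was called without the offset (0.46, adjusted p = 0.0364) and not with it (0.23, adjusted p = 0.0807), though it was called with a curve on coding GC content (0.29, adjusted p = 0.0318). Etv5 and Spred1 lost the call without siIgf2bp3 1 (adjusted p = 0.123 and 0.416) and without siIgf2bp3 2 (adjusted p = 0.175 and 0.21). The median of the 12 was 0.23 on all libraries and without siNC 1, and 0.16 without siNC 2.

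Most called immediate early genes, a class that serum and growth factors switch on within minutes, fell. Of 18 tested, 9 fell and 1 rose, with a median of -0.64. Fosb had 150 and 125 CPM in siNC and 66.8 and 64.5 CPM in siIgf2bp3 (log2 -1.07 ± 0.12, adjusted p = 0.000884). Fos had 140 and 112 CPM against 62.7 and 62.2 CPM (log2 -1.01 ± 0.13, adjusted p = 0.0016). Ccn1, a secreted matrix protein gene, had 235 and 218 CPM against 135 and 133 CPM (log2 -0.76 ± 0.10, adjusted p = 0.00182). Egr2, described above, was the member with the largest fall, and all 4 kept their calls without any 1 library. With the offset 9 fell and 1 rose, with a median of -0.49. Without siNC 1, 10 fell and 1 rose, with a median of -0.43, and without siNC 2, 16 fell and 2 rose. The labels do not say how the cells were handled before lysis.

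Stress genes included falls and 1 large rise. Of 18 genes of the integrated stress response 5 fell and 1 rose, with a median of -0.33 that shrank to -0.16 with the offset. Ddit4 had 272 and 214 CPM in siNC and 139 and 147 CPM in siIgf2bp3 (log2 -0.77 ± 0.12, adjusted p = 0.00587). Chac1 and Ddit3 had log2 fold changes of -1.38 ± 0.25 and -0.96 ± 0.20 (adjusted p = 0.011 and 0.0202), and lost the call without siIgf2bp3 1 (adjusted p = 0.0627 and 0.205). The rise was Slc7a11, a cystine transporter gene of low level, named after its values were seen (0.722 and 0.848 CPM against 3.18 and 3.23 CPM, log2 2.01 ± 0.46, adjusted p = 0.0288). Without siNC 1, 7 fell and 1 rose. Without siIgf2bp3 1, 1 of the 18 was called lower and none higher, and without siIgf2bp3 2, 3 were called lower, while 11 were called lower without siNC 2. Of 18 chaperone and unfolded protein response genes of the endoplasmic reticulum all 18 had a log2 fold change below 0, and 6 passed the test as falls, with a median of -0.28. Herpud1 had 37.8 and 36.8 CPM against 20.2 and 19.95 CPM (log2 -0.89 ± 0.14, adjusted p = 0.00488). Hspa5, the chaperone BiP, had 1106 and 1155 CPM against 903 and 862 CPM (log2 -0.36 ± 0.09, adjusted p = 0.0402). With the offset 14 of 18 fell with a median of -0.31, and 14 fell without siNC 1 and 11 without siNC 2. Without either siIgf2bp3 library 1 of the 18 was called in each case.

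The called genes of cholesterol synthesis and glycolysis fell. Against 4.52% of all genes tested, 3 of 21 cholesterol synthesis genes fell (median -0.12), among them Insig1 (log2 -0.54 ± 0.09, adjusted p = 0.0093) and Srebf2 (log2 -0.54 ± 0.12, adjusted p = 0.0238). Of 16 glycolysis genes 2 fell (median -0.19), Pfkl (log2 -0.66 ± 0.11, adjusted p = 0.0088) and Hk1 (log2 -0.46 ± 0.10, adjusted p = 0.0263). With the offset, where 8.43% of all genes fell, 5 cholesterol genes fell and 1 rose, and 7 glycolysis genes fell. None of either list was called by edgeR without siIgf2bp3 1 or 2, where 4 and 5 cholesterol genes and 2 glycolysis genes had an unadjusted p below 0.05. Without siNC 1, 8 cholesterol and 10 glycolysis genes fell. Of 16 p53 target genes 4 fell (median -0.14), against 4.52% of all genes tested. They included Btg2 (log2 -0.64 ± 0.12, adjusted p = 0.0118) and Phlda3 (log2 -0.55 ± 0.15, adjusted p = 0.0483). Phlda3, at 62.6% GC, was not called with the offset (-0.19, adjusted p = 0.179), whereas Btg2, at 49.7% GC, was (-0.68). With a curve on coding GC content Phlda3 was called (-0.28, adjusted p = 0.0408). Both lost the call without siIgf2bp3 1 (adjusted p = 0.111 for Btg2 and 0.222 for Phlda3) and without siIgf2bp3 2 (adjusted p = 0.126 and 0.206), and 8 of the list fell without siNC 1 and 7 without siNC 2.

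Most tested transcripts of the mitochondrial genome rose. Of 13 genes 9 were tested, and 6 of them rose and none fell, with a median log2 fold change of 0.86. mt-Nd1, a subunit of respiratory complex I, had 426 and 567 CPM in siNC and 1089 and 917 CPM in siIgf2bp3 (log2 1.02 ± 0.14, adjusted p = 0.00251). mt-Cytb, a subunit of complex III, had 484 and 666 CPM against 1260 and 1046 CPM (log2 1.00 ± 0.15, adjusted p = 0.0037). The order of the 4 libraries was the same for both genes, with siNC 1 lowest and siIgf2bp3 1 highest. These genes were among the poorest in GC, with a median of 37.6%, and with the offset the median fell to 0.51, with 6 rises and 1 fall. Without siNC 1 it was 0.63, with 6 rises. mt-Nd1 and mt-Cytb were at 0.72 and 0.74 with the offset and kept their calls without any 1 library. Without siIgf2bp3 1, 3 of the 9 rose, and the labels give no measure of RNA quality.

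Genes encoding C2H2 zinc finger proteins, a large family with AT-rich coding sequence, had a median near 0 with the offset. Of 23 tested, with a median GC content of 40.4%, 1 rose with and without the offset, against 2.79% of all genes without it. It was Zfp229 (48.4 and 53.7 CPM against 81.1 and 69.8 CPM, log2 0.56 ± 0.13, adjusted p = 0.0286). The median of the list was 0.19, and it was -0.02 with the offset, 0.0071 without siNC 1 and 0.39 without siNC 2. Zfp229 kept a smaller value with the offset (0.29, adjusted p = 0.0474) and lost its call without either siIgf2bp3 library (adjusted p = 0.367 and 0.0709). With the offset it was not called under RLE factors (adjusted p = 0.0512), the filter of 1 CPM in 2 libraries (0.0554), coding GC (0.0912) or DESeq2 (0.197). Zfp459, Zfp936 and Zfp945, which are outside the list and were named for the size of their rise, went from 1.00, 1.00 and 0.97 to 0.77, 0.73 and 0.62. Related zinc finger genes share long similar stretches, so reads can be split among them.

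Of 20 cell cycle genes 2 rose, against 2.79% of all genes tested, and none fell, with a median of 0.18. They were Pcna, the DNA polymerase clamp (223 and 226 CPM against 302 and 321 CPM, log2 0.47 ± 0.09, adjusted p = 0.017), and Ccnd1 (81.3 and 65.8 CPM against 109 and 111 CPM, log2 0.57 ± 0.12, adjusted p = 0.0233). With the offset 8 rose and 1 fell, against 7.49% and 8.43% of all genes. The median was 0.16 without siNC 1 and 0.21 without siNC 2. None was called by edgeR without siIgf2bp3 1 or 2, where 3 and 2 genes had an unadjusted p below 0.05. Of 13 imprinted genes 2 rose and 1 fell, against 2.79% and 4.52% of all genes tested. Peg10 had 605 and 618 CPM in siNC and 857 and 869 CPM in siIgf2bp3 (log2 0.50 ± 0.09, adjusted p = 0.0109), while Peg3 had 216 and 224 CPM against 162 and 163 CPM (log2 -0.44 ± 0.09, adjusted p = 0.0244). These 2 paternally expressed genes thus moved in opposite directions, with closely agreeing libraries. Both were called with the offset (0.40 and -0.54) and lost the call without either siIgf2bp3 library (adjusted p from 0.213 to 0.345). The median of the imprinted list was 0.17, and it was 0.145 without siNC 1 and 0.17 without siNC 2.

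Calls among genes of the m6A machinery, 1 of 9 writers, none of 10 erasers and other readers and 1 of 10 cofactors, were near the 7.32% of all genes, and nothing is read from these counts. Of the 9 writer genes Wtap rose (67.9 and 69.3 CPM against 96.6 and 87.0 CPM, log2 0.42 ± 0.11, adjusted p = 0.049). It was not called with the offset (0.23, adjusted p = 0.0958), with DESeq2 (0.41, adjusted p = 0.0626), or without siIgf2bp3 1 or 2 (adjusted p = 0.542 and 0.239). Of 10 erasers and other readers none passed edgeR's or DESeq2's test, and 4 had an unadjusted p below 0.05 in edgeR. The median of the writers was 0.13, and it was 0.04 without siNC 1 and 0.32 without siNC 2. That of the erasers and readers was 0.09, and it was 0.03 without siNC 1 and 0.19 without siNC 2. Ythdf2, a reader that promotes decay, had 90.3 and 88.5 CPM in siNC and 113 and 119 CPM in siIgf2bp3 (log2 0.38 ± 0.10, adjusted p = 0.0514), and passed with the offset (0.26, adjusted p = 0.039) but not with coding GC (0.24, adjusted p = 0.0567) or with the offset in DESeq2 (0.26, adjusted p = 0.185). Alkbh5, a demethylase gene, had 507 and 423 CPM against 372 and 384 CPM (log2 -0.30 ± 0.11, adjusted p = 0.11), and was called lower with the offset (-0.34, adjusted p = 0.029) but not with a curve on coding GC content (-0.04, adjusted p = 0.687). Of 10 cofactors of the IGF2BP proteins and RNA stability factors 1 rose, the helicase gene Dhx9 (348 and 431 CPM against 609 and 545 CPM, log2 0.57 ± 0.12, adjusted p = 0.0202). It was called with the offset (0.43, adjusted p = 0.000128), and without the offset it was not called without siIgf2bp3 1 or 2 (adjusted p = 0.249 and 0.0511). The median of these cofactors was 0.13, and it was 0.14 without siNC 1 and 0.20 without siNC 2.

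Markers of other cells were looked at in the same libraries. Of 12 feeder fibroblast genes 2 rose, against 2.79% of all genes tested. They were Lum (0.963 and 2.55 CPM against 5.87 and 4.73 CPM, log2 1.59 ± 0.42, adjusted p = 0.0485) and Dcn (11.3 and 13.0 CPM against 18.0 and 23.6 CPM, log2 0.78 ± 0.19, adjusted p = 0.0391). The summed level of the 12 was 833 and 639 CPM in siNC and 737 and 730 CPM in siIgf2bp3, so the labels overlapped. Lum was not called without siNC 1 (1.03, adjusted p = 0.0666) or siIgf2bp3 1 (1.42, adjusted p = 0.189), and Dcn was not called without siIgf2bp3 2 (0.57, adjusted p = 0.375). With the offset 4 of the 12 rose, Col3a1, Lum, Dcn and Fbn1, against 7.49% of all genes, and none fell. The median of the 12 was then 0.40, with 11 of 12 above 0, and Dcn was not called with the offset in DESeq2 (adjusted p = 0.113). Without siNC 1, 3 rose. Of 9 trophoblast genes tested 1 fell, against 4.52% of all genes tested. It was Krt8 (60.7 and 47.8 CPM against 33.9 and 36.8 CPM, log2 -0.62 ± 0.15, adjusted p = 0.0343), which endoderm also expresses. Krt8 lost its call without either siIgf2bp3 library, at -0.56 without siIgf2bp3 1 and -0.68 without siIgf2bp3 2. The summed level of the 9 trophoblast genes was 245 and 215 CPM in siNC and 202 and 215 CPM in siIgf2bp3, and Prl3d1 had no count in any library. Without siNC 1, 2 trophoblast genes fell. Of 6 genes of the 2-cell-like state 1 rose, against 2.79% of all genes tested, with a summed level of 15.8 and 18.9 CPM against 32.2 and 31.3 CPM. These are near-identical copies and their counts are uncertain. None of 5 neural and 4 mesoderm markers passed edgeR's or DESeq2's test without the offset, though 2 of each had an unadjusted p below 0.05 in edgeR, with sums of 90.7 and 76.6 against 73.9 and 74.5 CPM and of 6.38 and 8.00 against 8.32 and 8.30 CPM. With the offset Tubb3, a neuronal tubulin gene, rose (0.81, adjusted p = 0.00824) and no mesoderm marker was called. Without siNC 1, 1 neural marker rose, 1 mesoderm marker fell and 2 of the 2-cell-like genes rose. The part of such cells in the results was not tested.

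**Figure D4:**
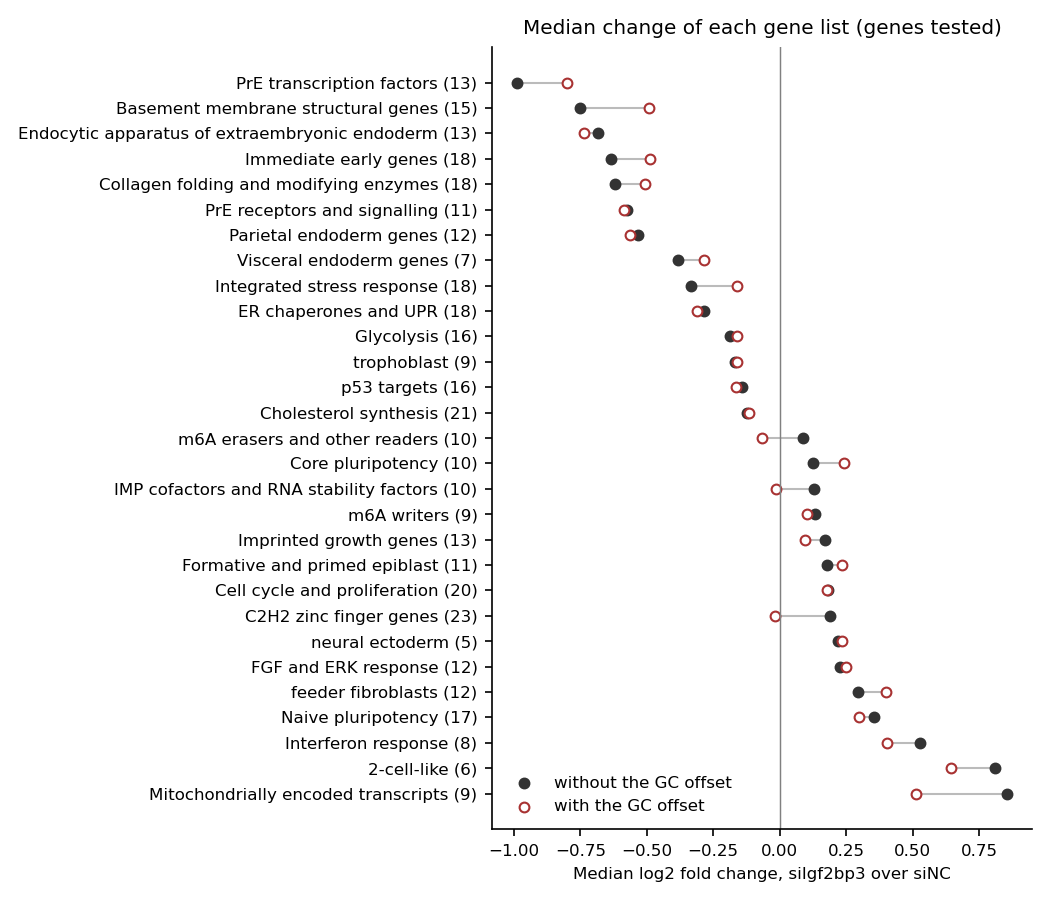
Median log2 fold change of each gene list with at least 5 genes tested, filled without the GC offset and open with it, with the number of genes in parentheses. Primitive endoderm, basement membrane, endocytic, immediate early and collagen-modifying lists lie left of -0.4 in both fits, naive pluripotency and mitochondrial lists lie to the right, and the zinc finger, reader and RNA stability lists cross 0.

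Members of some lists kept their calls whichever library was left out. Of the 167 genes called in every fit with and without the offset, 7 were primitive endoderm transcription factors, 8 basement membrane genes, 5 endocytic genes, 6 immediate early genes, 4 collagen-modifying genes, 4 parietal endoderm genes, 3 mitochondrial genes and 2 receptors. None was a naive or core pluripotency gene, and none was an m6A writer, eraser, reader or IGF2BP cofactor. The set is to be seen against the 12840 genes tested in both fits. Genes tested numbered 13, 15, 13, 18, 18, 12, 9 and 11 in the lists with members in it, in the order named. The lists with none held 9 to 17 tested genes, so none is likely at that share, and nothing is read from it. These counts are for lists chosen with results of these data known, and they do not rank the lists. They also depend on the spread of the pair that is left, so a lost call need not mean a smaller difference. Nanog, for instance, had a log2 fold change of 0.51 on all libraries, and 0.53 and 0.50 without siIgf2bp3 1 and 2.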

How the data were processed

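RNA was measured by sequencing in 2 siNC and 2 siIgf2bp3 libraries. TRIzol RNA went into libraries made with a stranded SMARTer or a VAHTS total RNA kit, per the labels' protocols. The labels do not assign the kits to libraries, and the strand setting and gene annotation are not given in the sources used here, so overlapping, antisense and near-identical genes are uncertain. Per the submitters' processing notes, the tools were STAR 2.7.11b, Subread, DESeq2, Trim Galore and FastQC 0.12.1, on the mm39 build. The table the authors deposited holds raw counts per gene, as whole numbers. Groups came from the sample titles, and 0 columns were left out.

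The test on these 4 libraries was that of edgeR 4.0.16 (R 4.3.3): TMM factors, a filter of 10 counts in enough libraries and 15 in all, and a robust quasi-likelihood fit. SE is the size of the log2 fold change over the root of F. A prior count of 2 was used only for log2 CPM values, as in the library differences and GC curves. With 2 libraries per label the fit has 2 residual degrees of freedom and borrows spread across genes. The script was run on simulated data, with a condition only on the recovery of large changes. No limit was set on false calls, so that run does not bear on their number. GC content is that of merged exons of GENCODE M21 basic transcripts (GRCm38), matched by symbol for 21144 of 21812 genes and through RefSeq names for 417 more, with 251 unmatched. No GRCm38 coordinate is used with the mm39 counts. The GC offset is a lowess curve (span 0.3) of log2 CPM minus the gene mean in each library.

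Genes named are the Igf2bp family, the 12 largest rises and 12 largest falls (adjusted p below 0.05, mean of at least 10 CPM, labels not overlapping, no predicted loci), the 6 largest each way with the offset, up to 4 per list by adjusted p, 10 lineage genes, and the 6 clearest lost and 6 gained calls; not every one is printed, and 1 list member is not reported here by name. The comparison, the 31 lists and the rules were chosen with earlier results of these data known. Alternatives were RLE factors, library totals, DESeq2 1.42.0, other filters, a replicate block, other GC measures and each library left out, where the label left with 1 library is assumed to vary like the other. Same-numbered libraries deviated with a correlation of -0.04, so they were not treated as pairs.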

Additional observations from a re-analysis of the deposited data

How the results depend on the processing

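The count of 945 genes lay within 1.5 times of itself under RLE factors (1072), library totals (1090), DESeq2 (820) and a filter of 1 CPM in 2 libraries (1048). It was 1699 without a low-count filter, 2044 with the GC offset, 2038 with GC and length offsets, 1467 with the replicate block and 2210 with the replicate block and the GC offset, and 236 to 4948 with 1 library left out. With the offset, 2044 genes became 900 with DESeq2, 2210 with the replicate block and 638 to 3276 with 1 library left out, and the other settings stayed within 1.5 times. The numbers do not pair the libraries, so the block is no stricter design. The GC correlation of -0.467 ranged from -0.562 to -0.223 with 1 library left out.

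Signs turned for 4 genes. Igf2bp3 was at -0.0121 with the GC offset, -0.0122 with the block as well, -0.0015 with the length offset too, and -0.014 to 0.209 with 1 library left out. With the GC offset it was at 0.0177 with coding GC and -0.0598 to 0.0152 with 1 library left out. Pou5f1 turned to 0.132 with the GC offset, with or without the block, and to 0.111 with the length offset. Sox2 turned to -0.00714 with both offsets and ran from -0.236 to 0.341 with 1 library left out. With the GC offset it turned to -0.00628 with RLE, -0.00861 with the 1 CPM filter and -0.0128 with GC bins, and ran from -0.291 to 0.34, and it was called at 0.317 with coding GC. Chordc1 with the offset ran from -0.0333 to 0.444. Of 106 genes followed, 90 were called without the offset. Alternatives on all libraries gave 952 values for the 106 genes, those not called included, and 31 of these values ended a call. With a library left out, a larger share of the values did. The causes were not tested. GC content of the genomic span was not run. The depth, at least 8160276 counts, limits genes of low CPM.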
